A study of Mus musculus with 28 samples.

Results

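The transcripts of 10 genes of the p53 pathway, of 20416 genes listed in each of 3 deposited tables of mouse liver RNA, were followed across 2 models of non-alcoholic steatohepatitis (NASH), in which a fatty liver becomes inflamed and scarred. The genes were taken by symbol: Cdkn1a, which encodes the cell cycle inhibitor p21, Trp53, which encodes p53 itself, and the p53 targets Mdm2, Ccng1, Bax, Phlda3, Trp53inp1, Btg2, Eda2r and Sesn1. All 10 had a line in each table and passed the filter on low values in each table.

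The p53 protein is a transcription factor that is held at a low level by the ubiquitin ligase Mdm2 and accumulates, mostly through slower protein breakdown, when DNA is damaged or cells are otherwise stressed. It then raises transcription of genes that halt the cell cycle, repair DNA, change metabolism or start cell death, and among them of Mdm2, which closes a negative feedback loop. The protein p21 binds cyclin-dependent kinases and the replication clamp PCNA and so stops entry into DNA synthesis. In liver it restrains hepatocyte division after injury. Messenger RNA levels, which are what was measured here, do not show how much p53 protein is present or active.

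The diet model compared 4 libraries from male C57BL/6 mice fed a diet lacking methionine and choline (MCD), nutrients that the liver needs to export fat, with 4 libraries from males on the matched low-fat control diet (CD). Titles give 4 weeks of diet, whereas a label for study duration gives 5. The STAM model, also in male C57BL/6 mice, combines streptozotocin, an alkylating toxin of insulin-producing beta cells given on postnatal day 2, with a high-fat diet (HFD) from week 4 onwards. It was sampled at 4 and at 10 weeks of age, with 5 STAM and 5 control (Ctrl) libraries at each age. Samples of 4-week STAM livers carry an HFD label although the design text starts that diet at the same age, so their time on it is not known here. The STAM controls are labelled only as on a control diet, so toxin and diet cannot be told apart as sources of a difference. Nothing in the labels says that each replicate was a separate mouse, so p-values measure the spread among the libraries of a group, whose source may be technical.

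Values are log2 CPM, the log2 of a gene's reads relative to the size of its library. The authors set these sizes table by table, so groups were tested only within a table. Libraries held 16.2 to 25.9 M reads. The hepatocyte markers had the highest summed level of the marker lists in every group, with 10 genes between 46986 and 152477 CPM. In a list of 9 pancreas, gut and fat genes, 4 pancreatic genes (Prss1, Pnlip, Ins1 and Ins2) had no read in any group. Others of that list, such as Cela1, Fabp2 and Vil1, had reads. The list summed to between 27.7 CPM in a 4-week control library and 158 CPM in a CD library. The 4-week control library 1 stood apart: 482 of 10208 genes differed more than 2-fold from the other libraries of its group, against at most 184 in any other library. Its 16 cell division genes summed to 33.7 CPM, where its group's median was 318 CPM. Counts of list genes called at 4 weeks that change without this library are given both ways.

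In MCD livers 7 of the 10 genes rose and 1 fell at a limma adjusted p under 0.05 (Benjamini-Hochberg over all genes tested, hereafter called). Among all 15312 genes tested, 22.6% were called higher and 20.1% lower. In STAM livers 6 of the 10 rose at 4 weeks, when 6.52% of genes were called higher and 3.27% lower, and 8 rose at 10 weeks, when 25.3% were called higher and 22.5% lower. Of the 10 genes, 5 in MCD livers, 5 in STAM livers at 4 weeks and 8 at 10 weeks were higher with no overlap between the groups, beside 20.9%, 6.38% and 16.8% of all genes tested. The median log2 fold change of the 10 genes was 0.87, 0.72 and 0.78 in these comparisons, and that of all genes tested 0.07, 0.01 and 0.05. Cdkn1a, Phlda3 and Eda2r rose most in STAM livers at both ages, and in MCD livers Trp53inp1 rose about as much as Phlda3. These are bulk tissue values, in which more cells with a transcript and more transcript per cell cannot be told apart.

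**Figure D1:**
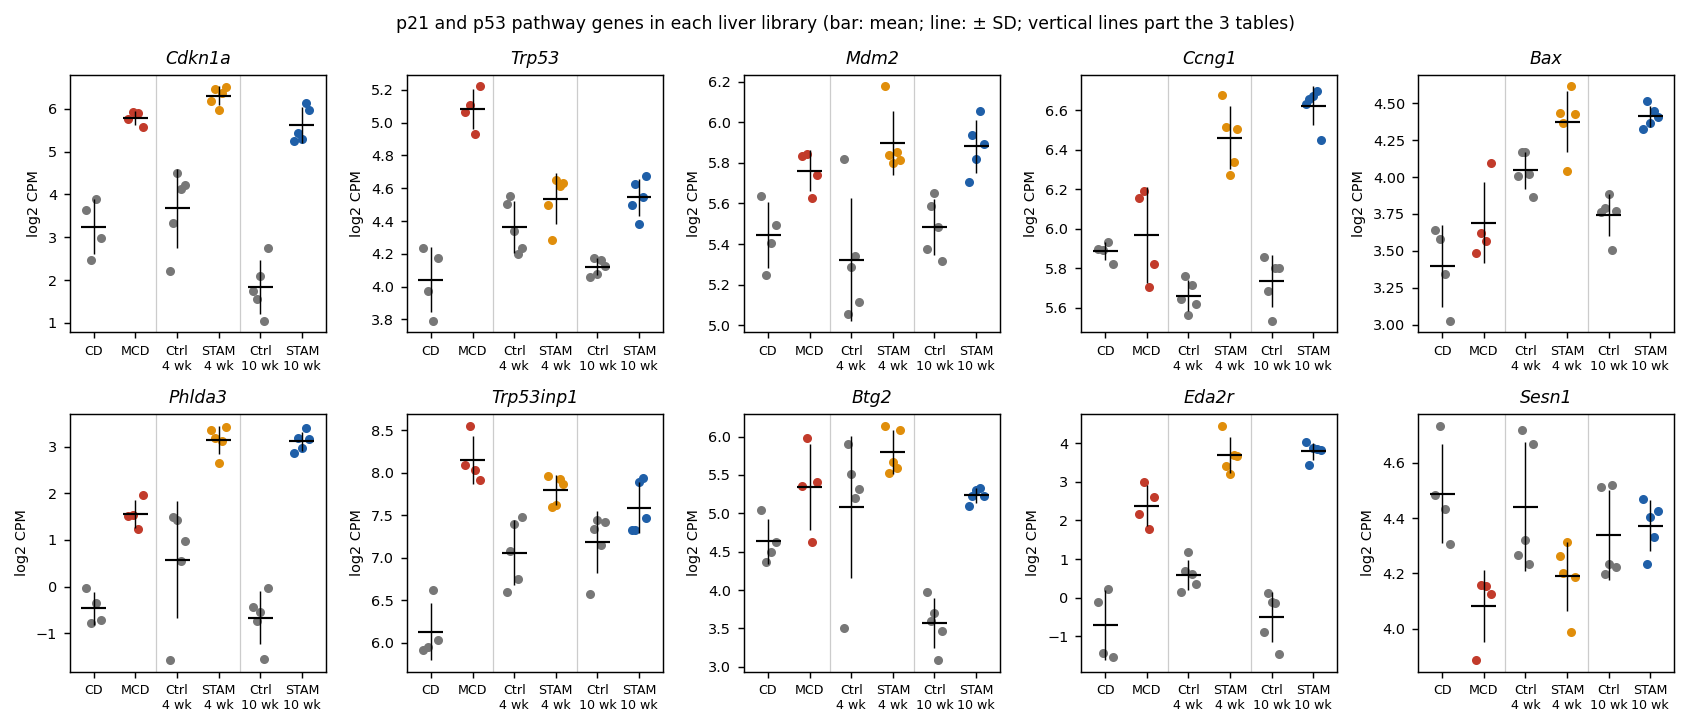
Level of each of the 10 genes in each of the 28 libraries, as log2 CPM on a separate vertical axis for each gene; points are libraries, horizontal bars group means and vertical lines ± SD. Cdkn1a, Phlda3 and Eda2r show no overlap between model and control in any of the 3 tables. Among the 4-week controls, library 1 is the lowest point for Phlda3, Cdkn1a, Btg2, Eda2r and Trp53inp1 and the highest for Mdm2.

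Trp53 (NM_011640, mm10 chromosome 11, 69580359 to 69591873, forward strand) encodes p53. CD libraries 1 to 4 held 4.23, 3.97, 3.79 and 4.17 log2 CPM, and MCD libraries held 5.07, 5.11, 4.93 and 5.22. The MCD libraries lay above every CD library, and Trp53 rose 2.05-fold (log2 change 1.04, SE 0.12, 95% interval 0.78 to 1.30, limma adjusted p = 2.6e-05). Controls of the STAM model held 4.50, 4.55, 4.34, 4.20 and 4.23 at 4 weeks against 4.50, 4.28, 4.65, 4.61 and 4.63 in STAM livers. These groups overlapped and Trp53 was not called (log2 difference 0.17, 95% interval -0.04 to 0.38, limma adjusted p = 0.32). At 10 weeks the 5 controls held 4.06, 4.18, 4.08, 4.16 and 4.12, and STAM livers held 4.50, 4.62, 4.38, 4.55 and 4.67. All STAM values were above all control values, and the log2 rise was 0.42 (SE 0.07, 95% interval 0.27 to 0.58, limma adjusted p = 0.000363).

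Mdm2 (NM_010786, mm10 chromosome 10, 117688875 to 117710758, reverse strand) encodes the ligase that marks p53 for breakdown and is itself a p53 target. In the diet table its levels were 5.64, 5.25, 5.41 and 5.49 log2 CPM in CD and 5.83, 5.85, 5.63 and 5.74 in MCD libraries. Here the groups touched at CD library 1 and MCD library 3, and the log2 rise was small, 0.31 (SE 0.10, 95% interval 0.09 to 0.54, limma adjusted p = 0.0274). The call was lost in 6 of 16 other settings, among them without CD library 2 (limma adjusted p = 0.088), and the authors' deposited table gives an adjusted p of 0.0643. At 4 weeks Mdm2 stood at 5.82, 5.06, 5.29, 5.34 and 5.12 in controls and 6.18, 5.84, 5.80, 5.85 and 5.82 in STAM livers, with an overlap made by control library 1. It rose by 0.57 (SE 0.13, 95% interval 0.29 to 0.86, limma adjusted p = 0.0163) with that library and by 0.70 (limma adjusted p = 0.000379) without it. At 10 weeks controls held 5.38, 5.59, 5.65, 5.48 and 5.32 and STAM livers 5.70, 5.94, 5.82, 6.06 and 5.89, without overlap, a rise of 0.40 (SE 0.08, 95% interval 0.22 to 0.57, limma adjusted p = 0.00136).

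Cdkn1a (NM_001111099, mm10 chromosome 17, 29090986 to 29100722, forward strand) encodes p21. On the control diet its 4 libraries held 3.63, 2.47, 3.89 and 2.99 log2 CPM, and on the MCD diet 5.77, 5.93, 5.91 and 5.57. MCD libraries lay close together and above all CD libraries, 5.85-fold higher (log2 difference 2.55, SE 0.27, 95% interval 1.96 to 3.14, limma adjusted p = 4.1e-05). At 4 weeks controls 1 to 5 held 2.22, 3.34, 4.50, 4.13 and 4.22, and STAM libraries 6.19, 6.47, 5.98, 6.37 and 6.52. The lowest STAM value was well above the highest control, and Cdkn1a rose 6.16-fold (log2 change 2.62, SE 0.40, 95% interval 1.71 to 3.53, limma adjusted p = 0.00438). Without control library 1, the lowest of its group, the log2 rise was 2.26 (limma adjusted p = 0.000219). At 10 weeks controls held 1.76, 1.55, 2.09, 1.05 and 2.75 and STAM libraries 5.25, 5.44, 5.29, 6.14 and 5.98. The groups were far apart, 13.7-fold (log2 change 3.78, SE 0.30, 95% interval 3.10 to 4.46, limma adjusted p = 8.73e-06). Mean levels, set across tables that were scaled separately and not tested, were 3.68 ± 0.92 in younger and 1.84 ± 0.63 in older controls, and 6.30 ± 0.22 and 5.62 ± 0.41 log2 CPM in the STAM groups (SD, n = 5 each). The GENCODE annotation places a transcript of undetermined coding status, AC167363.2, on the opposite strand over Cdkn1a. The sources used here do not say whether counting used strand, so reads of these overlapping genes may not have been told apart.

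A match to the p53 consensus site, a pair of 10-base repeats, was searched for in the 250 bases before and 50 bases after each gene start of RefSeq (GRCm38.p6), since most of the 10 genes are known p53 targets. The search covered both strands, allowed no spacer between the repeats, asked for intact cores and accepted up to 2 mismatches elsewhere. Of the 10 genes, 9 were in the promoter table (all but Trp53inp1), and Cdkn1a was the gene of these with a match. It lies at chr17:29090928-29090947 on the forward strand, 51 to 32 bases before the upstream start of the gene in that table, and has 1 mismatch. The NM_001111099 model in the deposited tables has a slightly different start, 29090986, which lies within the same window (29090729 to 29091028). The stretch chr17:29090868-29090978 is shown because it carries the match, in capitals:
Cdkn1a: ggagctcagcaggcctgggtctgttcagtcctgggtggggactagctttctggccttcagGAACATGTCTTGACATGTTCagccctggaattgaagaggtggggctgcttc
Other p53 target genes with a match in this window were Gtse1, Rps27l and Zfp365, 3 of the 25 that were in the table. Their sites and that of Cdkn1a are shown side by side, with the cores in capitals and positions chr15:85859945-85859964 for Gtse1, chr9:66946296-66946315 for Rps27l and, on the reverse strand, chr10:67912706-67912725 for Zfp365.
Cdkn1a: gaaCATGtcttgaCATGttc
Gtse1: gagCAAGttggggCTTGcct
Rps27l: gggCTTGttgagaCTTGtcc
Zfp365: agaCTAGgctgggCAAGact
Across the table, 51 of 27025 genes (0.189%) had such a match. A match is a description of letters, and a window without one says nothing about p53 at that gene, whose sites often lie in introns or farther away. Of the 51 genes with a match, Cdkn1a among them, 17 were tested here, a list made from sequence after the values were known: 5 were called higher and 1 lower in MCD livers, 2 and 0 in STAM livers at 4 weeks, and 7 and 1 at 10 weeks. The shares called higher were 29.4%, 11.8% and 41.2%, beside 22.6%, 6.52% and 25.3% of all genes tested. Those called lower were 5.88%, 0% and 5.88%, beside 20.1%, 3.27% and 22.5%. Median log2 fold changes were 0.08, 0.07 and 0.30, and those of all genes tested 0.07, 0.01 and 0.05.

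Ccng1 (NM_009831, mm10 chromosome 11, 40748552 to 40755286, reverse strand) encodes cyclin G1, a p53 target that recruits a phosphatase to Mdm2. Its levels were 5.90, 5.89, 5.93 and 5.82 log2 CPM in CD and 6.16, 6.19, 5.70 and 5.82 in MCD libraries. MCD libraries fell on either side of the narrow CD range, and the difference was 0.08 (95% interval -0.17 to 0.33, limma adjusted p = 0.602). At 4 weeks, controls held 5.65, 5.76, 5.56, 5.71 and 5.62 and STAM livers 6.68, 6.51, 6.27, 6.34 and 6.50. No values overlapped, and Ccng1 rose 1.74-fold (log2 change 0.80, SE 0.08, 95% interval 0.62 to 0.98, limma adjusted p = 7.95e-05). At 10 weeks the values were 5.86, 5.68, 5.53, 5.80 and 5.80 and 6.63, 6.66, 6.67, 6.70 and 6.45. The groups were again apart, with a rise of 0.89 (SE 0.07, 95% interval 0.73 to 1.05, limma adjusted p = 1.54e-06).

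Btg2 (NM_007570, mm10 chromosome 1, 134074865 to 134079155, reverse strand) encodes an antiproliferative protein that binds the CCR4-NOT deadenylase. CD libraries held 5.05, 4.37, 4.50 and 4.62 log2 CPM and MCD libraries 5.36, 5.99, 4.62 and 5.40. MCD library 3 lay inside the CD range, and the rise of 0.71 was near the threshold (SE 0.26, 95% interval 0.13 to 1.28, limma adjusted p = 0.0485); it lost its call in 8 of 16 other settings, among them without any of CD libraries 2, 3 and 4 or MCD libraries 1, 2 and 4, with adjusted p between 0.0917 and 0.125. At 4 weeks controls held 3.51, 5.91, 5.52, 5.19 and 5.31 against 6.14, 5.53, 5.68, 5.59 and 6.08 in STAM livers. Control library 1 was far below its group, the others overlapped with STAM livers, and the difference was 0.72 (limma adjusted p = 0.341) with and 0.32 (limma adjusted p = 0.28) without that library. The 10-week controls held 3.98, 3.60, 3.70, 3.09 and 3.47 and STAM livers 5.09, 5.22, 5.30, 5.33 and 5.22. STAM livers were tightly grouped and above all controls, 3.17-fold (log2 change 1.67, SE 0.13, 95% interval 1.39 to 1.95, limma adjusted p = 1.16e-06).

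Bax (NM_007527, mm10 chromosome 7, 45461695 to 45466898, reverse strand) encodes a pore-forming protein of the mitochondrial death pathway. Values in the diet table were 3.64, 3.58, 3.35 and 3.03 in CD and 3.48, 3.62, 3.57 and 4.09 log2 CPM in MCD libraries, and MCD library 4 was the one above every CD library. The difference of 0.29 was not called (SE 0.17, 95% interval -0.08 to 0.66, limma adjusted p = 0.19). At 4 weeks controls held 4.01, 4.17, 4.17, 4.02 and 3.87 and STAM livers 4.43, 4.37, 4.04, 4.61 and 4.42, where 4 of 5 STAM values were above all controls. This difference of 0.33 missed the threshold (SE 0.11, 95% interval 0.10 to 0.56, limma adjusted p = 0.0716), and was called without STAM library 3 (adjusted p = 0.019). In the 10-week table controls held 3.77, 3.79, 3.89, 3.51 and 3.77 and STAM livers 4.33, 4.51, 4.37, 4.45 and 4.41, and Bax rose without overlap by 0.67 (SE 0.08, 95% interval 0.49 to 0.84, limma adjusted p = 3.11e-05). GENCODE lists a protein-coding model, Gm45808, on the same strand over Bax, and the sources used here do not say how reads of this overlap were assigned.

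Phlda3 (NM_013750, mm10 chromosome 1, 135766085 to 135769134, forward strand) encodes a pleckstrin homology domain protein that competes with the survival kinase Akt for membrane lipids. Its levels are low, with 9 to 19 reads per CD library. CD libraries held -0.03, -0.79, -0.35 and -0.71 log2 CPM, and MCD libraries 1.51, 1.54, 1.24 and 1.97. The lowest MCD value was above the highest CD value, and Phlda3 rose 4.10-fold (log2 change 2.03, SE 0.26, 95% interval 1.46 to 2.61, limma adjusted p = 6.15e-05). At 4 weeks controls held -1.58, 1.49, 1.44, 0.56 and 0.97 and STAM livers 3.36, 3.19, 2.65, 3.13 and 3.42. Control library 1 had 5 reads and widened its group, yet no control reached a STAM library: the rise was 2.57 (SE 0.53, 95% interval 1.40 to 3.75, limma adjusted p = 0.0135), and 2.04 (limma adjusted p = 8.08e-05) without that library. At 10 weeks controls held -0.44, -0.75, -0.55, -1.55 and -0.03, or 7 to 19 reads, and STAM livers 2.86, 3.19, 2.97, 3.39 and 3.17, or 150 to 212 reads. The groups were far apart, 13.7-fold (log2 change 3.78, SE 0.25, 95% interval 3.25 to 4.31, limma adjusted p = 3.48e-07).

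Eda2r (NM_001161432, mm10 chromosome X, 97333841 to 97377209, reverse strand) encodes a receptor of the tumour necrosis factor receptor family that binds ectodysplasin A2. It was the lowest of the 10 genes per kilobase in every group, with 5 to 21 reads per CD library. CD libraries held -0.11, -1.42, 0.23 and -1.53 log2 CPM, and MCD libraries 2.16, 2.98, 1.78 and 2.61. All MCD values were above all CD values, and the rise was 8.53-fold (log2 change 3.09, SE 0.41, 95% interval 2.19 to 3.99, limma adjusted p = 9.54e-05). In the 4-week table controls held 0.15, 0.70, 1.17, 0.60 and 0.35 and STAM livers 4.45, 3.42, 3.21, 3.70 and 3.67, again without overlap, 8.55-fold (log2 change 3.10, SE 0.24, 95% interval 2.58 to 3.61, limma adjusted p = 1.1e-05). Older controls held -0.89, 0.11, -0.12, -0.15 and -1.44 and STAM livers 4.02, 3.42, 3.87, 3.84 and 3.81. Eda2r had the largest fold change of the 10 genes in each of the 3 comparisons, here 19.6-fold (log2 change 4.29, SE 0.26, 95% interval 3.72 to 4.86, limma adjusted p = 1.99e-07).

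Trp53inp1 (NM_001199105, mm10 chromosome 4, 11156441 to 11174377, forward strand) encodes a stress-induced protein that promotes p53 phosphorylation and takes part in autophagy. CD libraries held 5.92, 5.95, 6.63 and 6.03 log2 CPM and MCD libraries 8.09, 8.56, 8.03 and 7.91. MCD libraries were all above the CD libraries, and Trp53inp1 rose 4.05-fold (log2 change 2.02, SE 0.17, 95% interval 1.64 to 2.39, limma adjusted p = 3.46e-06). In the 4-week table controls held 6.60, 7.08, 7.39, 6.76 and 7.48 and STAM livers 7.96, 7.60, 7.62, 7.93 and 7.87. These did not overlap, and the gene rose by 0.73 (SE 0.16, 95% interval 0.38 to 1.09, limma adjusted p = 0.0158). At 10 weeks controls held 6.57, 7.34, 7.44, 7.15 and 7.42 and STAM livers 7.33, 7.32, 7.89, 7.94 and 7.46. Here 3 STAM values lay among or just above the higher controls, and the difference of 0.40 was not called (SE 0.18, 95% interval 0.00 to 0.81, limma adjusted p = 0.0892); it was called with libraries scaled by total reads (adjusted p = 0.0108), with quantile normalization (adjusted p = 0.0226) and with a replicate block (adjusted p = 0.0329). The block ended the 4-week call (limma adjusted p = 0.0564).

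Sesn1 (NM_001162908, mm10 chromosome 10, 41810574 to 41908436, forward strand) encodes sestrin 1, a stress protein that restrains the growth kinase mTORC1. It was the 1 gene of the 10 called lower in any of the 3 comparisons. CD libraries held 4.48, 4.73, 4.43 and 4.31 log2 CPM and MCD libraries 3.89, 4.16, 4.15 and 4.13. All MCD libraries were below all CD libraries, and Sesn1 fell by 0.41 (SE 0.12, 95% interval -0.67 to -0.15, limma adjusted p = 0.0161), although with libraries scaled by total reads the difference was 0.02, and without CD library 2 the call was lost (adjusted p = 0.0548). At 4 weeks controls held 4.26, 4.72, 4.32, 4.23 and 4.67 and STAM livers 4.26, 4.20, 4.31, 3.99 and 4.19, with overlap and a difference of -0.25 (limma adjusted p = 0.188). At 10 weeks the values were 4.51, 4.20, 4.23, 4.52 and 4.22 and 4.47, 4.24, 4.40, 4.33 and 4.42, which overlapped fully, with a difference of 0.03 (95% interval -0.15 to 0.22).

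**Figure D2:**
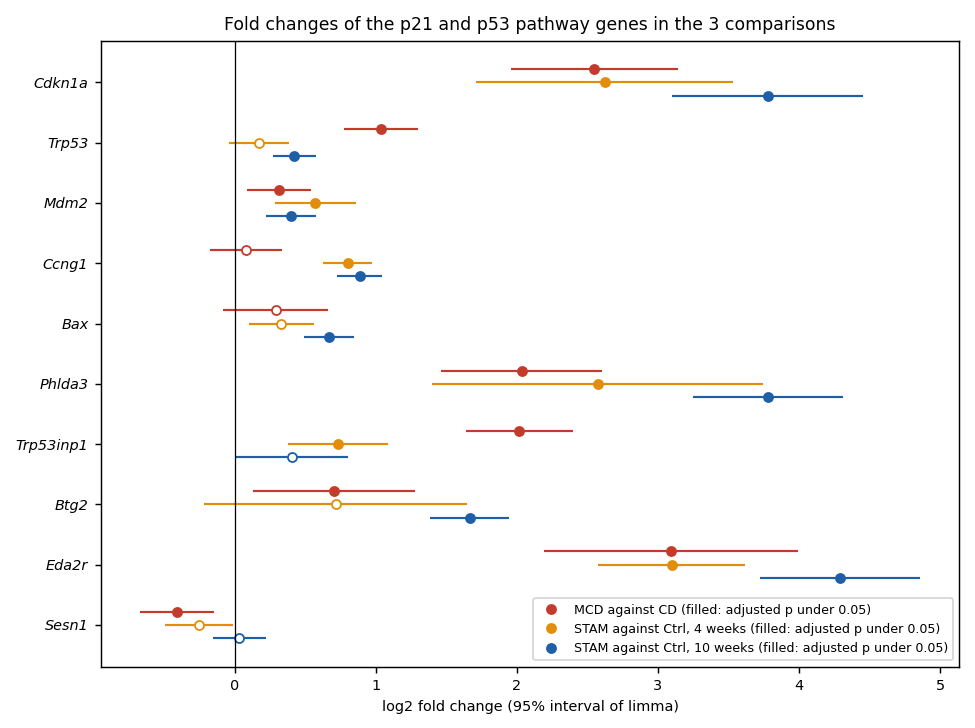
Log2 fold change of each gene in the 3 comparisons, with the 95% interval of limma; filled points have an adjusted p under 0.05 and the vertical line marks no difference. Intervals of Cdkn1a, Phlda3 and Eda2r lie above 1 in all 3 comparisons, and the MCD interval of Sesn1 lies below 0.

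Directions depend on how libraries were scaled, and model libraries carried larger scaling factors than controls, for example 1.11 to 1.23 in MCD and 0.832 to 0.899 in CD libraries. With total-read scaling, all genes had a median log2 fold change of 0.49 in MCD livers, 0.09 in STAM livers at 4 weeks and 0.33 at 10 weeks. All-gene calls were then 7588 higher and 1222 lower in MCD livers, against 3462 and 3079 as reported. The corresponding counts were 1381 and 269 against 999 and 501 at 4 weeks, and 7019 and 953 against 3876 and 3443 at 10 weeks. Of the 10 genes, 9, 7 and 10 were then called higher in the 3 comparisons and none lower. With quantile normalization 7 were called higher and 1 lower in MCD livers, and 6 and 9 higher in STAM livers at 4 and 10 weeks. All-gene calls were then 3101 higher and 3132 lower, 856 and 575, and 2892 and 3436. In the authors' deposited table, the calls at an adjusted p under 0.05 were the same for 9, 10 and 10 of the 10 genes, Mdm2 in MCD livers being the exception.

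Per kilobase of counted transcript length, the order of the genes changed between control and model livers. Cdkn1a was the 8th of 10 in each control group and the 2nd in MCD and 4-week STAM livers, and the 3rd in 10-week STAM livers. Its mean level was 4.90 CPM per kilobase in CD, 28.7 in MCD, 6.63 in 4-week controls, 40.8 in 4-week STAM livers, 1.85 in 10-week controls and 25.4 in 10-week STAM livers. As 8th it was not apart from the 7th gene, Sesn1 in CD and 4-week controls and Btg2 in 10-week controls, since their libraries overlapped. By mean, Ccng1 led in CD livers at 17.0 CPM per kilobase, above all libraries of the next gene, Mdm2, at 14.1, but not above the highest CD library of the third, Trp53inp1. Trp53inp1 had the highest mean in the other 5 groups, from 24.6 in 4-week controls to 52.2 CPM per kilobase in MCD livers. Its libraries overlapped those of the next gene in 3 of these groups: Bax in 4-week controls, Ccng1 in 10-week STAM livers and Cdkn1a in 4-week STAM livers (40.9 and 40.8 CPM per kilobase). Phlda3 and Eda2r stayed at the low end, with 0.492 and 0.128 CPM per kilobase in CD livers and 5.90 and 2.89 in 10-week STAM livers. The 3 genes with the largest fold changes in STAM livers, Cdkn1a, Phlda3 and Eda2r, had the 3 lowest means per kilobase in every control group. The control level is the base of the fold change, so these orders are not independent.

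Whether the STAM effect differed between ages was tested as the 10-week effect minus the 4-week effect in 1 model over 4 groups. Eda2r was the 1 gene of 10 called, with an effect larger by 1.19 on the log2 scale at 10 weeks (SE 0.38, 95% interval 0.41 to 1.98, limma adjusted p = 0.0302); of 15022 genes tested, 8.89% were called higher and 11.2% lower. The differences of Cdkn1a (1.16, limma adjusted p = 0.131), Phlda3 (1.21, adjusted p = 0.161) and Btg2 (0.95, adjusted p = 0.139) were not called. These rest on the 4-week control library 1. Without it, 4 genes were called: the difference was 1.52 (limma adjusted p = 0.0117) for Cdkn1a, 1.74 (limma adjusted p = 0.00108) for Phlda3, 1.35 (limma adjusted p = 0.000393) for Btg2 and 1.30 (limma adjusted p = 0.0171) for Eda2r. All-gene calls rose as well, to 1828 higher and 1979 lower of 15010 tested, from 1335 and 1676. The Eda2r call was lost in 10 other settings, with adjusted p up to 0.11. With libraries scaled by total reads 5 of the 10 were called, all higher at 10 weeks, and all-gene calls were 2898 higher and 539 lower. Set across the separately scaled tables and not tested, Btg2 averaged 5.09 ± 0.92 log2 CPM in 4-week and 3.57 ± 0.33 in 10-week controls (SD, n = 5 each), and Eda2r 0.59 ± 0.39 and -0.50 ± 0.65.

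Differences between the models were tested as the MCD effect minus the 10-week STAM effect, among 14986 genes of which 12.9% were called higher and 15.0% lower. The effects of 2 of the 10 genes were larger in MCD livers: Trp53inp1 by 1.61 (SE 0.28, 95% interval 1.03 to 2.20, limma adjusted p = 0.000315) and Trp53 by 0.61 (SE 0.13, 95% interval 0.34 to 0.89, limma adjusted p = 0.00149). For 4 genes the MCD effect was the lower one. The difference was -1.75 for Phlda3 (SE 0.36, 95% interval -2.50 to -0.99, limma adjusted p = 0.00121), -0.96 for Btg2 (SE 0.30, 95% interval -1.58 to -0.34, limma adjusted p = 0.0216) and -0.81 for Ccng1 (SE 0.13, 95% interval -1.09 to -0.53, limma adjusted p = 0.000159). Sesn1 had a difference of -0.44 (SE 0.14, 95% interval -0.74 to -0.15, limma adjusted p = 0.0243). Those of Cdkn1a (-1.23, 95% interval -2.19 to -0.27, limma adjusted p = 0.0525) and Eda2r (-1.20, 95% interval -2.27 to -0.12, limma adjusted p = 0.0917) were not called, nor were those of Mdm2 and Bax. Cdkn1a was called without CD library 2, 10-week control library 5 or 10-week STAM library 1 (limma adjusted p = 0.0173, 0.0128 and 0.0483), and also with the stricter filter and with voom weights (limma adjusted p = 0.0401 and 0.0468). Eda2r was called without CD library 2 or 4 (adjusted p = 0.0492 and 0.0365). With total-read scaling, 2 of the 10 were called higher and 2 lower, and all-gene calls were 2671 higher and 1601 lower, against 1929 and 2249 as reported. Diet, toxin, age and time on diet differ between the models together, so they cannot be told apart.

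**Figure D3:**
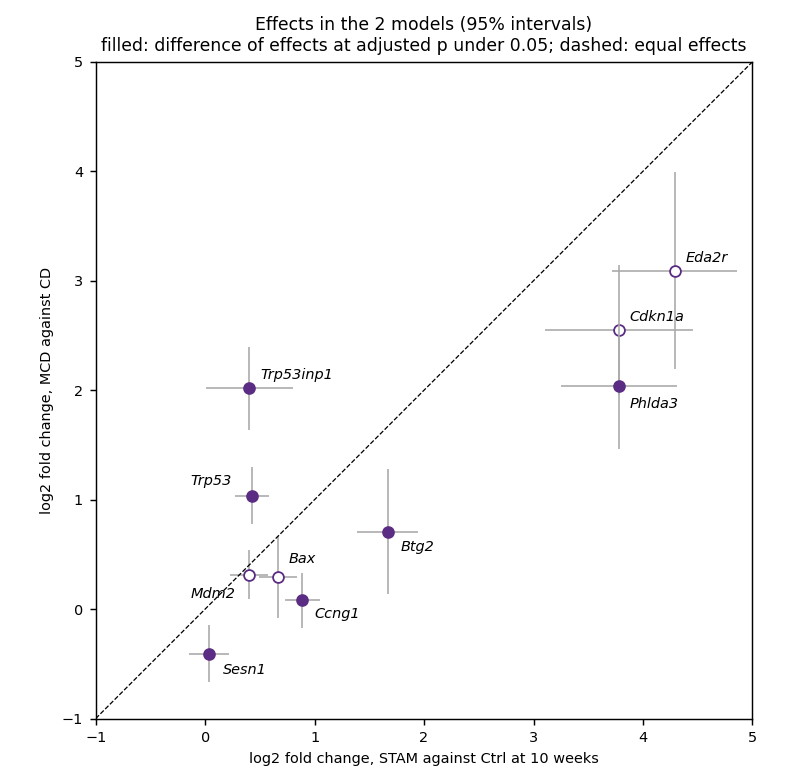
Log2 fold change in MCD livers against CD (vertical) and in 10-week STAM livers against Ctrl (horizontal) for each gene, with 95% intervals of limma; the dashed line marks equal effects and filled points are genes whose difference of effects has an adjusted p under 0.05. Trp53inp1 and Trp53 lie above the line, and Phlda3, Btg2, Ccng1 and Sesn1 below it.

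A list of 32 other p53 target genes, all tested, had 13 genes called higher and 4 lower in MCD livers (median log2 fold change 0.23), 10 and 0 in STAM livers at 4 weeks (0.37), and 18 and 1 at 10 weeks (0.50). Without the 4-week control library 1, the 4-week count was 12 higher and 0 lower. Of all 15312 genes tested, 22.6%, 6.52% and 25.3% were called higher in the 3 comparisons and 20.1%, 3.27% and 22.5% lower. These shares also stand beside the counts of the lists below. With libraries scaled by total reads the counts of the 32 genes were 19 and 1, 14 and 0, and 26 and 0. All-gene calls were then 7588 and 1222, 1381 and 269, and 7019 and 953. Tnfrsf10b, a death receptor for TRAIL, rose by 3.02 in MCD livers, 1.67 at 4 weeks and 3.43 at 10 weeks (limma adjusted p = 9.8e-06, 0.000526 and 1.36e-06). Psrc1, a spindle protein, was called in all 3 comparisons. It had 0 to 3 reads per 10-week control and 49 to 117 per STAM library, a ratio per effective library size of 63.9 (exact 95% counting interval 29.1 to 175). Zfp365, a zinc finger gene, was also called in STAM livers, on 0 to 1 reads per control and 3 to 7 per STAM library at 4 weeks, a ratio of 9.40 (exact 95% counting interval 2.31 to 82.4). Its fitted fold change depends on the prior count at such depths, and its 10-week call was lost with quantile normalization (limma adjusted p = 0.207). Intervals on reads cover counting error and not the spread between samples.

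Zmat3, an RNA-binding p53 target, rose by 0.50, 1.44 and 1.10 in MCD, 4-week STAM and 10-week STAM livers (limma adjusted p = 0.018, 3.04e-05 and 1.42e-06). Gdf15, a stress hormone, rose by 1.18 (adjusted p = 0.0465) in MCD and by 1.19 (adjusted p = 0.0284) in 10-week STAM livers and was not called at 4 weeks (1.35, adjusted p = 0.0554). With quantile normalization the MCD and 10-week calls of Gdf15 were lost (limma adjusted p = 0.195 and 0.159). With total-read scaling Gdf15 was called at 4 weeks (limma adjusted p = 0.0401). Sesn2, the stress-responsive relative of Sesn1, rose by 0.96 and 0.79 in MCD and 10-week STAM livers and had 0.36 at 4 weeks (adjusted p = 0.184). Pmaip1, which encodes the death protein Noxa, rose by 2.07 at 4 weeks (adjusted p = 0.000157), and Gtse1, a negative regulator of p53, by 1.61 in MCD livers (adjusted p = 0.0142). The Gtse1 call was lost with quantile normalization (limma adjusted p = 0.105). Among targets that fell, Gls2, a glutaminase, fell by 0.77 in MCD livers (adjusted p = 0.000195) and Tigar, a fructose bisphosphatase, by 0.50 in 10-week STAM livers (adjusted p = 0.000483), whereas Tigar rose by 0.45 in MCD livers (adjusted p = 0.028). The kinase gene Plk2 and Pml, of nuclear bodies, fell by 0.76 and 0.61 in MCD livers (adjusted p = 0.00364 and 0.00546). Plk2 rose by 0.73 and 0.55 in STAM livers at 4 and 10 weeks (adjusted p = 0.000436 and 0.00284). Under total-read scaling the MCD falls of Plk2 and Pml lost their calls (limma adjusted p = 0.144 and 0.346). The 10-week fall of Tigar was then not called either (limma adjusted p = 0.0994), whereas that of Gls2 in MCD livers was (limma adjusted p = 0.0134).

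The STAM effect was larger at 10 than at 4 weeks for 3 of the 32 genes, Psrc1, Sulf2 and Tnfrsf10b, and lower for Tigar and Rps27l; without the 4-week control library 1 these counts were 6 and 2, and with total-read scaling 8 and 1. Of all genes tested, 8.89% were called higher and 11.2% lower. The MCD effect was larger than the 10-week STAM effect for Tigar and Perp and lower for 9 genes, led by Psrc1 (-3.98), Sulf2 (-2.79) and Plk3 (-1.39; limma adjusted p = 0.00527, 7.17e-06 and 0.0142). Zmat3 was among the 9, at -0.60 (adjusted p = 0.0111). Of all genes, 12.9% were called higher and 15.0% lower. With total-read scaling 2 of the 32 were called higher and 5 lower, and the calls of Zmat3, Ei24, Ercc5 and Xpc were lost.

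**Figure D4:**
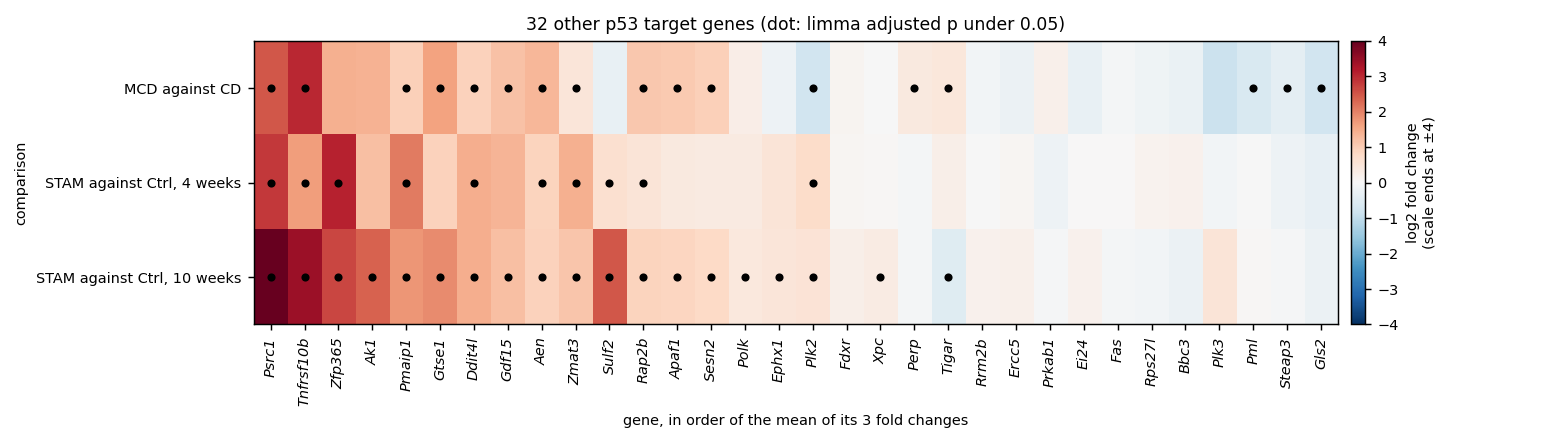
Log2 fold change of 32 other p53 target genes (columns) in the 3 comparisons (rows), in colours from blue (lower) to red (higher) that end at ±4; a dot marks a limma adjusted p under 0.05. Dots gather among the genes at the left, ordered by mean fold change, with 13, 10 and 18 genes called higher in the 3 rows.

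Among genes that act on p53, 19 of 20 listed had a line and 17 or 18 were tested per comparison. Their median log2 fold changes were 0.05 in MCD and -0.11 in STAM livers at both ages. In MCD livers 3 of 18 were called higher and 1 lower, beside 22.6% and 20.1% of all genes tested. Chek1, a DNA damage checkpoint kinase, rose by 1.98, the kinase Atr by 0.88 and the kinase Hipk2 by 0.38 (limma adjusted p = 0.00447, 0.000413 and 0.0229). Hipk2 was called lower at 10 weeks (-0.37, adjusted p = 0.0331). The deubiquitinase gene Usp7 was lower by 0.33 as reported (adjusted p = 0.0116) and turned to higher by 0.10 with total-read scaling. None was called in STAM livers at 4 weeks, when 6.52% of all genes tested were called higher and 3.27% lower. These shares were 25.3% and 22.5% at 10 weeks. At 10 weeks Chek2 and Atr rose by 0.77 and 0.39 (limma adjusted p = 0.0184 and 0.00219). The Chek2 call was lost with quantile normalization (0.25, limma adjusted p = 0.396), and the Atr call was kept (limma adjusted p = 0.00403). At that age 6 genes were lower, among them the deacetylase gene Sirt1 (-0.43), the ribosomal gene Rpl11 (-0.40) and Mdm4, the partner of Mdm2 (-0.32, limma adjusted p = 0.0054). Under total-read scaling 5 were higher and 0 lower at 10 weeks. Mdm4 had -0.07 in MCD and -0.12 in 4-week STAM livers and was not called there.

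Cdkn1a was 1 of 7 genes for inhibitors of cyclin-dependent kinases, and in STAM livers at 4 weeks the sole one called. In MCD livers Cdkn2c, which encodes p18, rose by 2.44 and Cdkn1c, which encodes p57, by 1.93 (limma adjusted p = 9.05e-07 and 2.31e-05), and Cdkn1b, which encodes p27, was lower by 0.34 (adjusted p = 0.0235), a difference that was 0.09 under total-read scaling. At 10 weeks Cdkn2c rose by 1.15 (adjusted p = 5.35e-05). Cdkn2a, which encodes p16 and the Mdm2 inhibitor p19Arf, had 0 to 4 reads in every library and was not called in any comparison.

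The products that p21 binds or restrains were followed in a list of 11 cyclins, kinases and Pcna. Of these, 4 were called higher and 2 lower in MCD livers, 0 and 0 at 4 weeks, and 7 and 0 at 10 weeks, with medians of 0.12, 0.06 and 0.35. Without the 4-week control library 1, 0 were called higher and 1 lower at 4 weeks. Ccnd1, which encodes cyclin D1, rose by 3.21 in MCD and 1.96 in 10-week STAM livers (limma adjusted p = 1.35e-05 and 5.7e-05) and had 0.93 at 4 weeks (adjusted p = 0.217). Cdk1, the mitotic kinase, rose by 2.12 and 1.92 and Ccna2, cyclin A2, by 1.89 and 2.49 in MCD and 10-week STAM livers. Ccnd3 fell by 0.70 in MCD and rose by 0.35 in 10-week STAM livers (limma adjusted p = 0.00255 and 0.00553). Under total-read scaling the MCD fall of Ccnd3 lost its call (-0.28, limma adjusted p = 0.177). In MCD livers 7 of the 11 genes were then called higher and 0 lower, and all-gene calls were 7588 higher and 1222 lower. Cdk2 was lower by 0.40 in MCD livers, or higher by 0.03 with total-read scaling. Of 16 cell division genes, 14, 0 and 15 were called higher and none lower in MCD, 4-week STAM and 10-week STAM livers. Their medians were 1.93, 0.15 and 1.93. Some of these calls were lost with quantile normalization, at limma adjusted p of 0.0765 and 0.0991 in MCD livers. In 10-week STAM livers the lost calls had limma adjusted p between 0.0684 and 0.265. Mki67, a marker of dividing cells, rose by 2.06 and 2.33 in MCD and 10-week STAM livers (limma adjusted p = 0.0119 and 1.21e-05) and had 0.01 at 4 weeks. Without the 4-week control library 1, 6 of the 16 were called lower in STAM livers at 4 weeks and 0 higher. That library had the lowest sum of these genes among the 4-week controls, so leaving it out raises their control mean. It was left out after the data were seen, and the 6 calls follow in part from that choice.

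Of 14 genes associated with cellular senescence, 5 were called higher and 1 lower in MCD livers, 2 and 0 in STAM livers at 4 weeks and 7 and 0 at 10 weeks, with medians of 0.46, 0.51 and 0.94. Without the 4-week control library 1, the 4-week counts were 3 and 2. Timp1, an inhibitor of matrix proteases that is also a scar gene, rose by 2.82 and 3.65 in STAM livers at 4 and 10 weeks (limma adjusted p = 0.0383 and 0.00297). Its 4-week call was lost with quantile normalization (limma adjusted p = 0.0625). In MCD livers Plaur, the urokinase receptor, and the chemokine gene Ccl2 rose by 3.08 and 2.98, and Glb1, lysosomal beta-galactosidase, fell by 0.75 (adjusted p = 0.000567). The Glb1 call was lost with total-read scaling (-0.32, limma adjusted p = 0.0514). The ATF4 response to amino acid and protein folding stress is known to raise some genes that are also p53 targets, such as Sesn2, and its genes were counted beside them: 8 of 10 were called higher in MCD livers, 4 higher and 1 lower at 4 weeks, and 7 higher at 10 weeks, with medians of 3.09, 0.55 and 1.25. Trib3, a pseudokinase, rose by 4.99 in MCD livers, and Fgf21, a liver hormone, by 3.66 in 10-week STAM livers. The part of this response in the levels of the 10 genes was not tested.

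Markers of some other cell types also differed in these contrasts. Of all genes tested, 22.6%, 6.52% and 25.3% were called higher in MCD, 4-week STAM and 10-week STAM livers, and 20.1%, 3.27% and 22.5% lower. Of 10 macrophage markers, 7, 8 and 8 were called higher in MCD, 4-week STAM and 10-week STAM livers. Their summed levels were 357 to 572 CPM in CD and 649 to 1329 in MCD, 392 to 530.2 and 575 to 798 at 4 weeks, and 380.2 to 549.8 and 553 to 738 at 10 weeks, with control before model. Of 8 cholangiocyte markers, 5, 4 and 5 were called higher, with sums of 77.0 to 99.7 and 123 to 207, 49.9 to 89.7 and 116 to 159, and 28.1 to 46.4 and 74.9 to 358 CPM. Of 8 stellate cell markers, 6 were called higher in MCD livers, 1 lower at 4 weeks, and 5 higher and 1 lower at 10 weeks. Their sums were 408 to 433 and 573 to 747, 464 to 776 and 466 to 599.7, and 327 to 425 and 408 to 696 CPM. Of 10 hepatocyte markers, 7 were called lower in MCD livers, 1 lower at 4 weeks, and 7 lower and 1 higher at 10 weeks. Their sums were 81982 to 103945 and 67109 to 89294, 132333 to 152477 and 108191 to 124816, and 83001 to 108473 and 46986 to 61041 CPM. Without the 4-week control library 1, 3 hepatocyte and 2 stellate cell markers were called lower at 4 weeks. With quantile normalization the hepatocyte counts were 2 lower and 1 higher in MCD and in 10-week STAM livers, and the cholangiocyte counts were 2, 3 and 1 higher in MCD, 4-week STAM and 10-week STAM livers. Of 8 lymphocyte markers, 1 was called lower in MCD livers, 0 were called at 4 weeks and 2 were called higher at 10 weeks. With quantile normalization those 2, Cd8a and Cd4, were not called at 10 weeks (limma adjusted p = 0.0759 and 0.900). Cd79a and Cd79b were then called lower at 4 weeks (limma adjusted p = 0.0153 and 0.0164). Of 8 endothelial markers 3 and 2 were called lower in MCD and 4-week STAM livers and 4 higher and 1 lower at 10 weeks. Under total-read scaling the 3 in MCD livers, Kdr, Clec4g and Tek, lost their calls (limma adjusted p = 0.34, 0.784 and 0.849). The 10-week fall of Clec4g was then not called either (limma adjusted p = 0.164). Kdr and Stab2 stayed lower at 4 weeks (limma adjusted p = 0.0126 and 0.012). Of the 9 pancreas, gut and fat genes, 5, 4 and 3 were tested in the 3 comparisons. In MCD livers Vil1 was called higher and Cela1 lower, none was called at 4 weeks, and Fabp2 and Vil1 were called higher at 10 weeks. With quantile normalization Vil1 was not called at 10 weeks (limma adjusted p = 0.338). Every macrophage, cholangiocyte, stellate cell and hepatocyte marker had reads in each group. The part of cell makeup in the levels of the 10 genes was not tested.

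Across the 28 libraries, with each gene centred on its table's mean, Cdkn1a was most like Phlda3 among the 10 genes (Pearson r 0.968), then Eda2r (0.932), Btg2 (0.832), Ccng1 (0.818), Bax (0.783), Trp53inp1 (0.706), Mdm2 (0.685) and Trp53 (0.657), with Sesn1 at -0.433. Among 9800 genes above the median level in each table, the 5 outside the 10 with the highest correlation were Ly6d (0.958), a surface antigen, Filip1l (0.941), Ifi27l2b (0.938), Mlkl (0.936), the effector of necroptosis, and Ucp2 (0.934), a mitochondrial carrier. Libraries of a group share their condition, so these values describe the pattern over 6 groups and carry no p. Ly6d rose by 5.17, 5.23 and 7.09 in MCD, 4-week STAM and 10-week STAM livers (limma adjusted p = 0.000301, 1.35e-07 and 1.03e-06), more than Cdkn1a in each.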

How the data were processed

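Poly(A) RNA of 28 liver samples was sequenced from both ends after a stranded kit, per the labels' protocols. The submitters' processing notes name STAR 2.4.2a and the mm10 build; a counter, its use of strand, an annotation release and the authors' test were not given in the sources used here. Every per-sample column deposited by the authors held log2 CPM, scaled within each of 3 tables with a mean prior of 0.25 reads, as read from the values: after removal of the prior, 100% of values were whole reads within 0.05 reads. The authors' deposited adjusted p-values and log2 fold changes are quoted only where named.

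Each comparison was fitted within its table with limma 3.58.1 (R 4.3.3, statmod 1.5.0; trend and robust), two-sided, after genes up to the 25th percentile of mean value were dropped, with calls at an adjusted p (Benjamini-Hochberg) under 0.05. Differences of effects used 1 fit over 4 groups. Depth was 16.2 to 25.9 M reads per library, where 3 reads are at most 0.200 CPM. No replicate pair agreed within sampling noise, with chi-square per degree of freedom of at least 11.9. The steps were tested on simulated data. Alternatives changed the filter, the prior, the scaling, the variance model and the weights (voom), added a replicate block, or left out each library.

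The 10 genes and all gene lists were chosen with earlier results of these data known. Named were the 10 genes; at most the 3 largest called rises and falls of each other list per comparison; Mdm4, Cdkn2a, Gdf15, Sesn2, Zmat3, Mki67 and Ccnd1 always; and the 5 genes most like Cdkn1a. 1 gene of the senescence list is not reported here by name. Genes with a promoter match and the markers of cell types are named outside this rule, after their values were seen. Intervals on reads cover counting error only.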

Additional observations from a re-analysis of the deposited data

Results flagged for a closer look

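In 60 groups of 4 or 5 libraries, 1 per gene and group, a library that lay far from the others of its group was found 4 times; chance gives about 1 in 20 groups. Trp53inp1 in CD library 3 was 6.63 log2 CPM, with the other CD libraries at 5.92 to 6.03. Sesn1 in MCD library 1 was 3.89 log2 CPM, below the other MCD libraries at 4.13 to 4.16. Mdm2 in 4-week STAM library 1 was 6.18 log2 CPM, above the others at 5.80 to 5.85. Ccng1 in 10-week STAM library 5 was 6.45 log2 CPM, below the others at 6.63 to 6.70.

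A difference between 2 effects passed the limma test for 7 results. The STAM effect on Eda2r was larger at 10 than at 4 weeks by 1.19 on the log2 scale. The MCD effect exceeded the 10-week STAM effect by 0.61 for Trp53 and by 1.61 for Trp53inp1. The MCD effect minus the 10-week STAM effect was -0.81 for Ccng1, -1.75 for Phlda3, -0.96 for Btg2 and -0.44 for Sesn1.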

How the results depend on the processing

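Of 1051 values of the 10 genes under an alternative, 992 kept their direction and side of the threshold, 30 lost a call, 25 gained one and 4 changed sign: with libraries scaled by total reads, Sesn1 in MCD livers (0.016) and Mdm2 in the difference between ages (0.0405) and between models (0.0473), and without 10-week control library 2, Sesn1 at 10 weeks (-0.00016, with a range of -0.00016 to 0.0801 over the libraries left out). Cdkn1a, Phlda3 and Eda2r kept their calls in the 3 model comparisons wherever they were tested. Without each library in turn, the number of the 10 genes called was 5 to 8 in MCD livers (5 without CD library 2, against 8), 6 to 7 in STAM livers at 4 weeks (6), 8 at 10 weeks (8), 0 to 4 for the difference between ages (1) and 5 to 8 for the difference between models (6). All-gene calls in these settings were 5731 to 6213, 982 to 1821, 6590 to 7421, 2438 to 3807 and 3678 to 4314. The difference between ages had no call (0) with the stricter filter, where Phlda3 and Eda2r were not tested, with quantile normalization and with voom weights, and 5 with total-read scaling. It had 4 without 4-week control library 1, 2 without 4-week STAM library 4, and 0 without 10-week control library 1 or 5, 10-week STAM library 1, 4-week control library 2 or 3, or 4-week STAM library 2 or 3. For the 32 other targets, leaving out 4-week control library 1, chosen after seeing the data, gave 8 calls in the difference between ages against 5. Bax was called in the difference between models without CD library 4 or MCD library 4 (limma adjusted p = 0.0339 and 0.0262), and the Sesn1 call there was lost without CD library 2 or MCD library 1 (0.0633 and 0.0571). Unless stated, the cause was not tested.

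Replicate numbers are shared across groups, but same-numbered libraries did not deviate together (correlations -0.41 to 0.02), and the main fits used no pairing. With few libraries per group, this cannot show whether a number marks anything that the samples share. With a replicate block 7, 5, 9, 0 and 6 of the 10 genes were called in the 5 comparisons above, and all-gene calls were 5507, 848, 6566, 2071 and 3234, against 6541, 1500, 7319, 3011 and 4178. Without 4-week STAM library 1, 982 genes were called at 4 weeks.

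Low read numbers limit Phlda3 and Eda2r in controls, where 1 library can hold as few as 5 reads, and Cdkn2a and Zfp365 throughout. Counts over all genes in the 4-week table rest partly on 1 control library that stood apart. Transcript levels do not measure p53 or p21 protein.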
